A study of Mus musculus with 9 samples.

Results

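Pericyte genes were followed through 3 layers of the newborn mouse bladder, the urothelium (the lining epithelium), the detrusor (the smooth muscle coat) and the stroma (the connective tissue). The 6 genes were Rgs5, Cspg4, Mcam, Pdgfrb, Abcc9 and Anpep, a list of genes known to mark pericytes, and all probe sets that carried these symbols in the platform annotation were taken. They came to 6 of 18193 genes with a probe set of their own, and to 13 of the 45101 probe sets on the array. Of these, 11 probe sets of 5 genes were bright enough to be tested, and the single Anpep probe set was not. The genes were chosen by their levels in these samples as well, since the grouping rests on the contrast of urothelium with detrusor, in which Rgs5 goes against the other genes. Values of that contrast are therefore given here as a description, with no test.

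All mice were FVB/N animals carrying an SMGA/EGFP transgene, in which smooth muscle gamma actin (Actg2) is paired with a green fluorescent reporter, and no animals without it were used as a comparison. Each layer was cut from frozen bladder sections of 8 microns by laser capture, and 3 arrays were made per layer. Urothelium had 2 arrays from postnatal day 2 and 1 from day 1, detrusor had 1 from day 2 and 2 from day 1, and stroma had 2 from day 2 and 1 from day 1. The labels do not tie an array to an animal, so arrays may share animals, and a p-value here reflects the spread among 9 captured samples that may be technical.

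Pericytes are contractile support cells that wrap capillaries and small venules inside the vessel basement membrane. Endothelial cells draw them to new vessels by releasing a platelet-derived growth factor ligand that the receptor encoded by Pdgfrb binds. No single gene is specific to them: Cspg4 and Mcam are also made by smooth muscle, Mcam by endothelium, Pdgfrb by fibroblasts, and Anpep by several epithelia and myeloid cells. In a captured layer, fewer pericytes and less RNA per pericyte cannot be told apart.

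The promoters of Rgs5 and of the pair whose levels ran closest together, Cspg4 and Mcam, are shown because the first goes the opposite way to the other 2. Each run covers 250 bases before to 50 after the gene's start in the RefSeq table of build GRCm38.p6, in which 5 of the 6 genes had an entry. Capitals mark matches, on either strand, to the GC box GGGCGG or the GATA core GATAAG. The other motifs searched were TGGGAA, the core letters bound by the Notch effector RBPJ, TATAAA, and the CArG box of smooth muscle genes. No matches overlapped in these 3 windows.
Rgs5, chr1:169655251-169655550, plus strand: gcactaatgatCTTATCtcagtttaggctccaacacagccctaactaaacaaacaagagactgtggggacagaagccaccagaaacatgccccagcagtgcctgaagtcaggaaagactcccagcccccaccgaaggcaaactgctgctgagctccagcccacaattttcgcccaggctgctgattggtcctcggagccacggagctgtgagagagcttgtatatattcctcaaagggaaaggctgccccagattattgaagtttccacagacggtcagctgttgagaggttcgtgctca
Cspg4, chr9:56864854-56865153, plus strand: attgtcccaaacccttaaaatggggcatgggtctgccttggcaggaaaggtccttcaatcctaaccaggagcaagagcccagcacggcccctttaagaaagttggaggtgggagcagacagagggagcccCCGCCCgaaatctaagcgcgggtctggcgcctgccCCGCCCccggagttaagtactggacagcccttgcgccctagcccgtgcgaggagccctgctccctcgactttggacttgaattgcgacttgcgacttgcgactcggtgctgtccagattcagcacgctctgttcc
Mcam, chr9:44134408-44134707, plus strand: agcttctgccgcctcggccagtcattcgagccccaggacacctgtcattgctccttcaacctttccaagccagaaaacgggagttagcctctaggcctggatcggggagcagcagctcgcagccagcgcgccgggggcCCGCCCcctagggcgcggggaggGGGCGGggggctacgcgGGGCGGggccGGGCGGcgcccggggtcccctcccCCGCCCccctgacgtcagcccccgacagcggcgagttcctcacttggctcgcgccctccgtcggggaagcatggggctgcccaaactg
The Rgs5 window held 1 GATA core match, between 239 and 234 bases before the start, and no GC box. The Cspg4 window held 2 GC boxes and the Mcam window 5. The Abcc9 window held 1 GC box and 1 TGGGAA match, and the Anpep window 4 GC boxes. Of 32851 promoter windows of this length, 35.7% held a GC box, 7.44% the GATA core, 25.6% TGGGAA, 13.6% TATAAA and 1.63% a CArG box. A match describes the letters only.

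The layers were checked first against markers of the cells they should and should not hold. Summed over 12 urothelial genes, the intensity was 351431 to 496752 in urothelium, 7288 to 11526 in detrusor, and 134461, 25953 and 344177 in stroma 1, 2 and 3. Summed over 10 smooth muscle genes it was 29592, 20785 and 339236 in urothelium 1, 2 and 3, 379044 to 530364 in detrusor and 56298 to 174319 in stroma. By these sums, stroma 3 carried urothelial transcripts near the urothelium level, and urothelium 3 carried smooth muscle transcripts near the detrusor level. As a mean log2 level over the list, smooth muscle genes had 13.76 in urothelium 3, against 14.83 to 15.05 in detrusor. Urothelial genes had 13.88 in stroma 3, against 14.34 to 15.04 in urothelium. The table has no detection calls, so no marker can be called absent. Summed over 12 endothelial genes, the level was 19497, 5790 and 16783 in urothelium 1, 2 and 3, 12987 to 39490 in detrusor and 26442 to 63462 in stroma, with its lowest value in urothelium 2.

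Rgs5 encodes a regulator that shortens G protein signalling, and in many vessels it is among the most specific pericyte transcripts. Its main probe set, 1417466_at, read 51338, 59772 and 58352 intensity units in urothelium 1, 2 and 3, against 13921, 8119 and 11780 in detrusor and 19133, 4965 and 33641 in stroma. Every urothelium array was above every detrusor and stroma array. The urothelium arrays lay close together, with a mean log2 level of 15.78 ± 0.12 (SD, n = 3), against 13.43 ± 0.40 in detrusor and 13.85 ± 1.41 in stroma. The wide stroma spread ran from stroma 2, below every detrusor array, to stroma 3, above all of them. Levels are log2(intensity + 39.31), and differences are on that scale. In the contrast used to group the genes, Rgs5 stood 2.35 ± 0.55 log2 units higher in urothelium than in detrusor (SE, 5.11-fold). Within postnatal day 2 that difference was 2.21 and within day 1 it was 2.49.

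**Figure D1:**
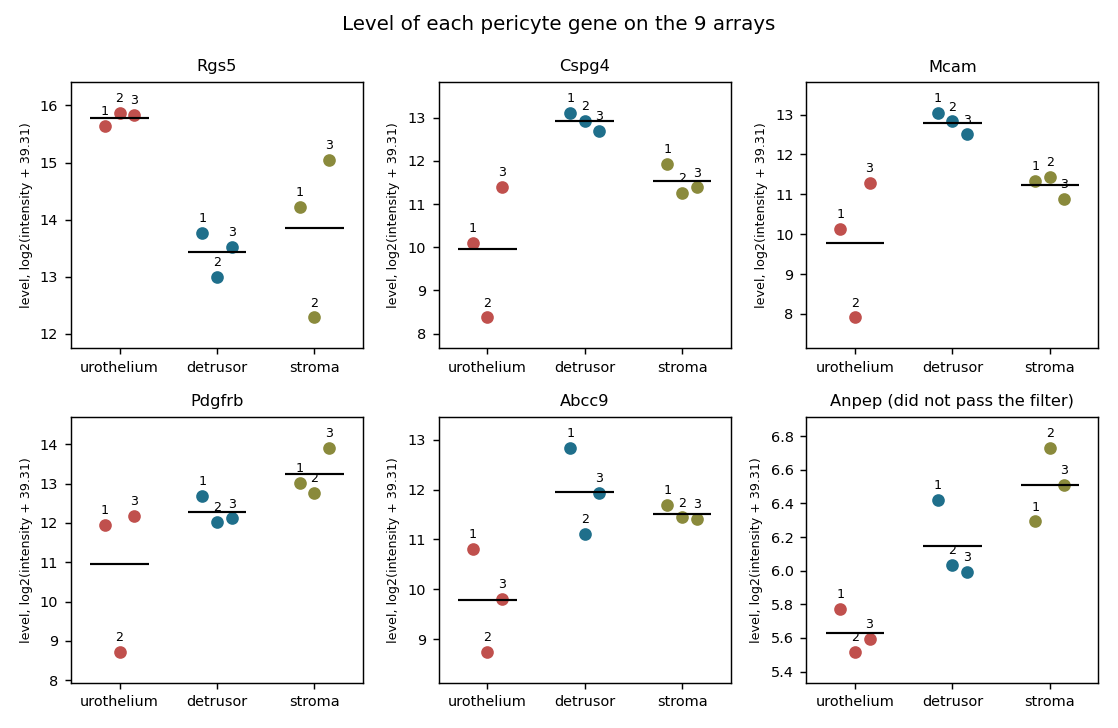
Level of each of the 6 genes, as log2(intensity + 39.31) on the y axis with a range of its own in each panel, by layer; points are arrays numbered by replicate (3 per layer) and bars are means. Rgs5 is highest in the 3 urothelium arrays, whereas the other 5 genes have their lowest array in urothelium 2. Urothelium 2 also had the lowest median intensity of all arrays.

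Of these comparisons, urothelium against stroma was not used to group the genes, although its urothelium arrays are the same. By limma, 0 of the 5 testable genes passed an adjusted p of 0.05 there, whereas 0.23% of all 13064 genes tested did (0.0612% higher, 0.168% lower), and 4 had an unadjusted p under 0.05, against 19% of all genes. The Rgs5 difference was 1.93 ± 0.55 (SE, 3.82-fold, limma adjusted p = 0.0965), with all 3 urothelium arrays above all 3 stroma arrays. Arrays did not overlap for 3 of the 5 genes, against 23.1% of all genes. The Rgs5 value depended on single stroma arrays. Without stroma 2 the difference was 1.15 ± 0.32 (adjusted p = 0.103), without stroma 3 it was 2.53 ± 0.49 (adjusted p = 0.0241), and without stroma 3 and urothelium 3 it was 2.50 ± 0.56 (adjusted p = 0.0481). With all 9 arrays, median centring also gave a call (2.35, adjusted p = 0.0462). Over all alternatives the adjusted p ran between 0.0241 and 0.293. In stroma the order of Rgs5 over the 3 arrays was that of the summed urothelial markers, 344177 in stroma 3, 134461 in stroma 1 and 25953 in stroma 2, whose part in the result was not tested. Detrusor and stroma did not differ in Rgs5 beyond their spread (-0.42 ± 0.55, adjusted p = 0.685), and the difference was -1.20 ± 0.32 without stroma 2 (adjusted p = 0.0531) and 0.17 ± 0.49 without stroma 3 (adjusted p = 0.874).

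Rgs5 has 3 further probe sets, all listed under 1 shared sequence accession in the platform annotation. Probe set 1420941_at read 3011, 2129 and 1839 in urothelium, against 929.9, 434.4 and 1005 in detrusor and 306.0, 56.2 and 3201 in stroma. Probe set 1420942_s_at read 487.3, 3256 and 626.1 in urothelium, against 103.0, 60.3 and 166.1 in detrusor and 118.8, 75.4 and 713.8 in stroma. Probe set 1420940_x_at, which did not pass the brightness filter and whose suffix marks probes that can match other transcripts, read 238.3, 137.2 and 146.0 in urothelium, against 116.9, 56.8 and 91.7 in detrusor and 221.9, 94.9 and 670.0 in stroma. All 4 Rgs5 probe sets therefore had every urothelium array above every detrusor array. They were also alike in stroma, where stroma 3 was the highest and stroma 2 the lowest on each. The median intensities of the stroma arrays had the same order, with 388.5 in stroma 3, 253.0 in stroma 1 and 232.9 in stroma 2. Their part in this likeness was not tested. The urothelium minus detrusor differences of the 4 probe sets were 2.35, 1.57, 2.88 and 0.74, in the order in which the probe sets are described. Against stroma, 1420941_at and 1420942_s_at were 2.29 ± 0.96 and 2.13 ± 0.84 higher in urothelium and 1420940_x_at was -0.48 ± 0.64, none of them called when every probe set was fitted.

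**Figure D2:**
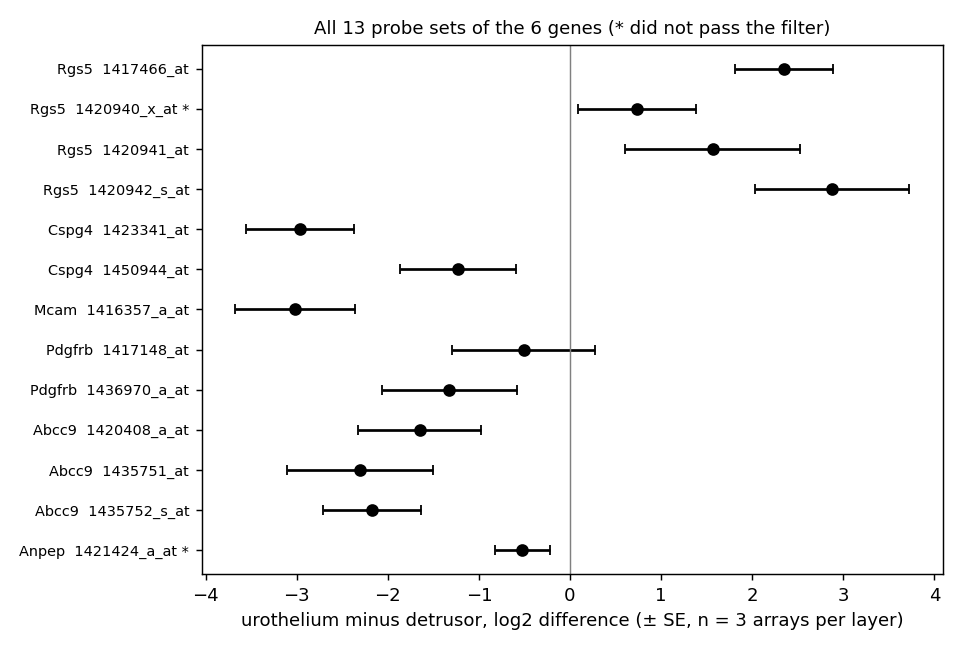
Urothelium minus detrusor difference (x axis, log2, ± SE, 3 arrays per layer) for all 13 probe sets, from the fit over every probe set; an asterisk marks those that did not pass the brightness filter. The 4 Rgs5 probe sets lie above 0 and the 9 probe sets of the other genes below it. This contrast was used to group the genes, so the split is no independent result.

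The 2 surface proteins Cspg4, a large chondroitin sulphate proteoglycan, and Mcam, an adhesion molecule of the immunoglobulin family, had nearly the same profile. Cspg4 (1423341_at) read 1053, 292.7 and 2650 in urothelium 1, 2 and 3, against 8810, 7772 and 6638 in detrusor and 3856, 2417 and 2641 in stroma. Mcam (1416357_a_at) read 1078, 201.7 and 2470 in urothelium, against 8388, 7243 and 5768 in detrusor and 2553, 2742 and 1860 in stroma. For both, detrusor arrays were all above the stroma arrays, and urothelium arrays ranged widely from urothelium 2 at the bottom to urothelium 3 at the stroma level. Across the 9 arrays the 2 genes had r = 0.99 with each other (Pearson, a description over arrays that share 3 layers). Each was opposite to Rgs5, with r = -0.65 for Cspg4 and -0.68 for Mcam. The genes were grouped because Rgs5 goes against the others between urothelium and detrusor, so that choice favoured a negative r.

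Urothelium stood below detrusor by -2.96 ± 0.61 for Cspg4 (7.79-fold) and by -3.01 ± 0.67 for Mcam (8.08-fold). Urothelium 3, the array with a summed smooth muscle level of 339236, had the highest Cspg4 and Mcam of its layer, and without it the differences were -3.68 for Cspg4 and -3.77 for Mcam. The part of smooth muscle transcripts in these levels was not tested. Without urothelium 2 the differences were -2.17 for Cspg4 and -2.08 for Mcam. The second Cspg4 probe set, 1450944_at, read 1210, 279.3 and 1987 in urothelium, against 2665, 2123 and 1749 in detrusor and 811.1, 2314 and 2223 in stroma, so that its layers overlapped, with -1.23 ± 0.63 between urothelium and detrusor.

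In detrusor against stroma, limma called 0 of the 5 genes, against 5.84% of all genes (3.12% higher, 2.72% lower), and 2 of them, Cspg4 and Mcam, had an unadjusted p under 0.05, against 22.9%. Cspg4 was 1.39 ± 0.61 higher in detrusor (2.62-fold, adjusted p = 0.205) and Mcam 1.57 ± 0.67 higher (2.96-fold, adjusted p = 0.196). The arrays of 3 of the 5 genes, Cspg4, Mcam and Pdgfrb, did not overlap between these layers, as did those of 27.1% of all genes. Mcam passed in 1 alternative: without urothelium 2, which leaves the difference at 1.57 and its SE at 0.37, its adjusted p was 0.0387. Over all alternatives the adjusted p was 0.0643 to 0.353 for Cspg4 and 0.0387 to 0.346 for Mcam. Against stroma, urothelium had -1.57 ± 0.61 for Cspg4 (adjusted p = 0.193) and -1.45 ± 0.67 for Mcam (adjusted p = 0.276), with overlapping arrays. Without urothelium 2 those values were -0.78 for Cspg4 and -0.52 for Mcam, and without urothelium 3 they were -2.29 (adjusted p = 0.0635) and -2.21 (adjusted p = 0.0900).

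**Figure D3:**
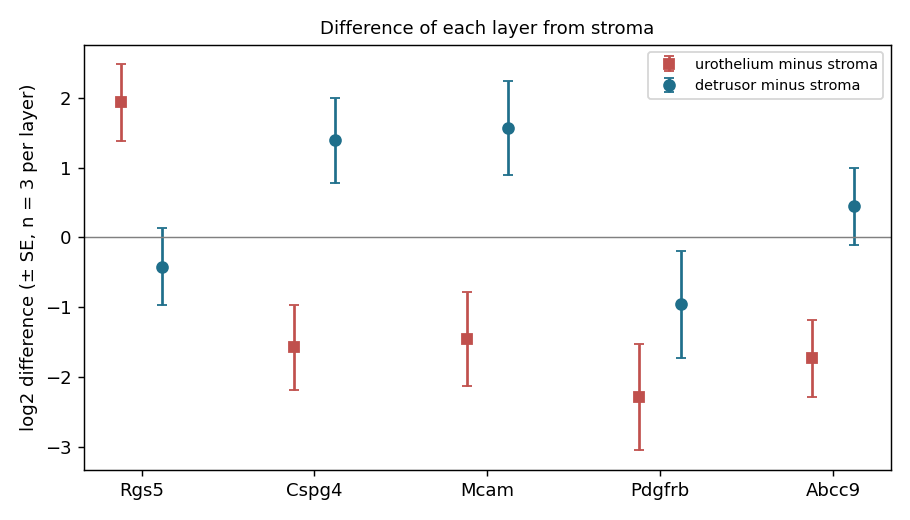
Difference of urothelium (squares) and of detrusor (circles) from stroma for the 5 tested genes (y axis, log2, ± SE, 3 arrays per layer; both use the same stroma arrays). Rgs5 lies 1.93 above stroma in urothelium, where the other 4 genes lie below it by 1.45 to 2.28, and none of the 10 differences passed the limma threshold.

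Pdgfrb, the receptor that recruits pericytes, was the only one of the 5 tested genes with its highest mean in stroma. Its main probe set, 1436970_a_at, read 3945, 380.9 and 4596 in urothelium 1, 2 and 3, against 6540, 4142 and 4395 in detrusor and 8281, 6923 and 15365 in stroma. Urothelium 1 and 3 lay near detrusor, urothelium 2 lay far below every other array, and all stroma arrays lay above both other layers. Detrusor minus stroma was -0.96 ± 0.76 (adjusted p = 0.490) and urothelium minus stroma -2.28 ± 0.76 (4.86-fold, adjusted p = 0.140), while urothelium minus detrusor was -1.32 ± 0.76. Without urothelium 2, the last value was -0.21 and urothelium minus stroma was -1.16, and without urothelium 3 they were -1.94 and -2.90. The other probe set, 1417148_at, read 1209, 99.8 and 609.4 in urothelium, against 1461, 600.2 and 298.4 in detrusor and 1285, 1446 and 3261 in stroma, again with its lowest value in urothelium 2 and its highest in stroma 3. Markers of fibroblasts, which also make Pdgfrb, summed to 138971, 126033 and 259774 in urothelium 1, 2 and 3, 286060 to 366053 in detrusor and 393559 to 593194 in stroma over 9 genes. Their part in the Pdgfrb levels was not tested.

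Abcc9 encodes the regulatory subunit of an ATP-sensitive potassium channel that relaxes mural cells when it opens. Its main probe set, 1435752_s_at, read 1764, 387.8 and 853.5 in urothelium, against 7279, 2169 and 3860 in detrusor and 3254, 2743 and 2682 in stroma. On this probe set urothelium was below the other layers on every array, and detrusor arrays lay on both sides of stroma. Urothelium minus stroma was -1.73 ± 0.55 (3.31-fold, adjusted p = 0.124), detrusor minus stroma 0.45 ± 0.55 (adjusted p = 0.665), and urothelium minus detrusor -2.17 ± 0.55 (4.51-fold). The 1420408_a_at and 1435751_at probe sets also had lower means in urothelium than in detrusor, by -1.65 ± 0.68 and -2.31 ± 0.80, but their layers overlapped. On 1420408_a_at urothelium 3 read 1494, above detrusor 2 at 1083 and stroma 2 at 870.4. On 1435751_at urothelium 1 read 686.9, above detrusor 2 at 394.4 and stroma 3 at 602.0.

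Anpep, the gene of an aminopeptidase found on pericytes and many other cells, had 1 probe set, 1421424_a_at, whose intensity was below its array's median on all 9 arrays. It read 15.3, 6.4 and 8.9 in urothelium, against 46.4, 26.1 and 24.3 in detrusor and 39.1, 66.9 and 51.8 in stroma. The urothelium arrays were below all others. With no filter on brightness its urothelium minus stroma difference was -0.88 ± 0.30 (adjusted p = 0.174) and its detrusor minus stroma difference -0.36 ± 0.30 (adjusted p = 0.540), on a scale that understates the change of such low values.

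The order of the layers thus differed by gene. From high to low mean, Rgs5 ran urothelium, stroma, detrusor on its main probe set, with no neighbours separated by the limma test over all arrays. Its other probe sets did not all share that order. Probe set 1420941_at ran urothelium, detrusor, stroma (11.18, 9.61 and 8.89), and 1420940_x_at had its highest mean in stroma (8.19, against 7.70 in urothelium and 6.97 in detrusor). Cspg4, Mcam and Abcc9 ran detrusor, stroma, urothelium, with no neighbours separated by the limma test. Pdgfrb ran stroma, detrusor, urothelium, again with no neighbours separated. Anpep is not ranked, since its signal cannot be told from background. All 9 probe sets of the 5 genes other than Rgs5, the dim Anpep probe set included, had a lower mean in urothelium than in detrusor and than in stroma. All 9 had their lowest value in urothelium 2. Of the 5 genes with a tested probe set, 4 had urothelium and detrusor arrays that did not overlap. Among all genes, 39.3% had such arrays, limma called 16.4% in that contrast and 29.5% had an unadjusted p under 0.05. That contrast was used to group the genes, so the count of 4 is a description that these shares cannot test. Rgs5 on urothelium 2 was the highest Rgs5 value of the 9 arrays. That array also had the highest urothelial sum, 496752, and the lowest endothelial and smooth muscle sums. It further had the lowest median intensity of the 9 arrays, 133.3, beside 191.7 for the next lowest, detrusor 3. How many of all genes had their lowest value on urothelium 2 was not counted, so the low values there cannot be called particular to these genes.

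For day 2 against day 1, fitted together with the layers, limma called 0 of the 5 genes, with 0 also at an unadjusted p under 0.05, against 0.0153% (0.00765% higher, 0.00765% lower) and 5.56% of all genes. The largest day value was that of Pdgfrb, 1.14 ± 0.58 higher on day 2 (adjusted p = 0.873). It came from urothelium, where day 2 was above day 1 by 3.35, against -0.24 in detrusor and 0.32 in stroma. The only day 1 array of urothelium is urothelium 2, so day and that array cannot be told apart within this layer. For Rgs5 the day difference was -0.18 ± 0.49 (adjusted p = 0.973). Within postnatal day 2, urothelium minus detrusor was -1.96 for Cspg4, -1.79 for Mcam, -0.05 for Pdgfrb and -1.62 for Abcc9, and within day 1 it was -4.65, -5.02, -3.64 and -3.23 in the same order of genes. Urothelium minus stroma within day 2 was 2.08 for Rgs5, -0.58 for Cspg4, -0.46 for Mcam, -1.27 for Pdgfrb and -1.12 for Abcc9. Within day 1, with 1 array on each side, it was 1.64, -3.55, -3.43, -4.31 and -2.95 in that order. Detrusor minus stroma within day 2 was -0.14, 1.38, 1.34, -1.22 and 0.50, and within day 1 it was -0.85, 1.09, 1.60, -0.67 and 0.29, again in that order.

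The genes whose levels followed Rgs5 most closely over the 9 arrays were sought among 3196 genes with a SD of at least 1 log2 unit. Slc14a1, a urea transporter gene, came first (Pearson r = 0.995), with all 9 arrays in the same order as for Rgs5 (Spearman rho = 1). Its log2 levels were 12.17, 13.36 and 12.65 in urothelium, against 8.28, 7.11 and 8.22 in detrusor and 9.58, 5.52 and 10.82 in stroma. Evpl, the envoplakin of the epithelial cell envelope, followed with r = 0.986, then Chmp4c, a subunit of the membrane scission machinery, and S100a1, a calcium-binding protein gene, each with r = 0.981. Lowest were Ifi204, an interferon-inducible gene (r = -0.975), and Cartpt, a neuropeptide precursor gene (r = -0.972). The mean of the other 4 tested genes was followed most closely by Prrx1, a mesenchymal homeobox gene (r = 0.975), Tekt2, a tektin gene of cilia (r = 0.974), Stx2, a syntaxin gene (r = 0.971), and Pkdcc, a secreted kinase gene (r = 0.967). Prrx1 had levels of 8.31, 5.66 and 9.12 in urothelium, against 12.65, 11.67 and 12.20 in detrusor and 10.73, 10.53 and 10.36 in stroma. These correlations describe arrays that share layers and carry no test.

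**Figure D4:**
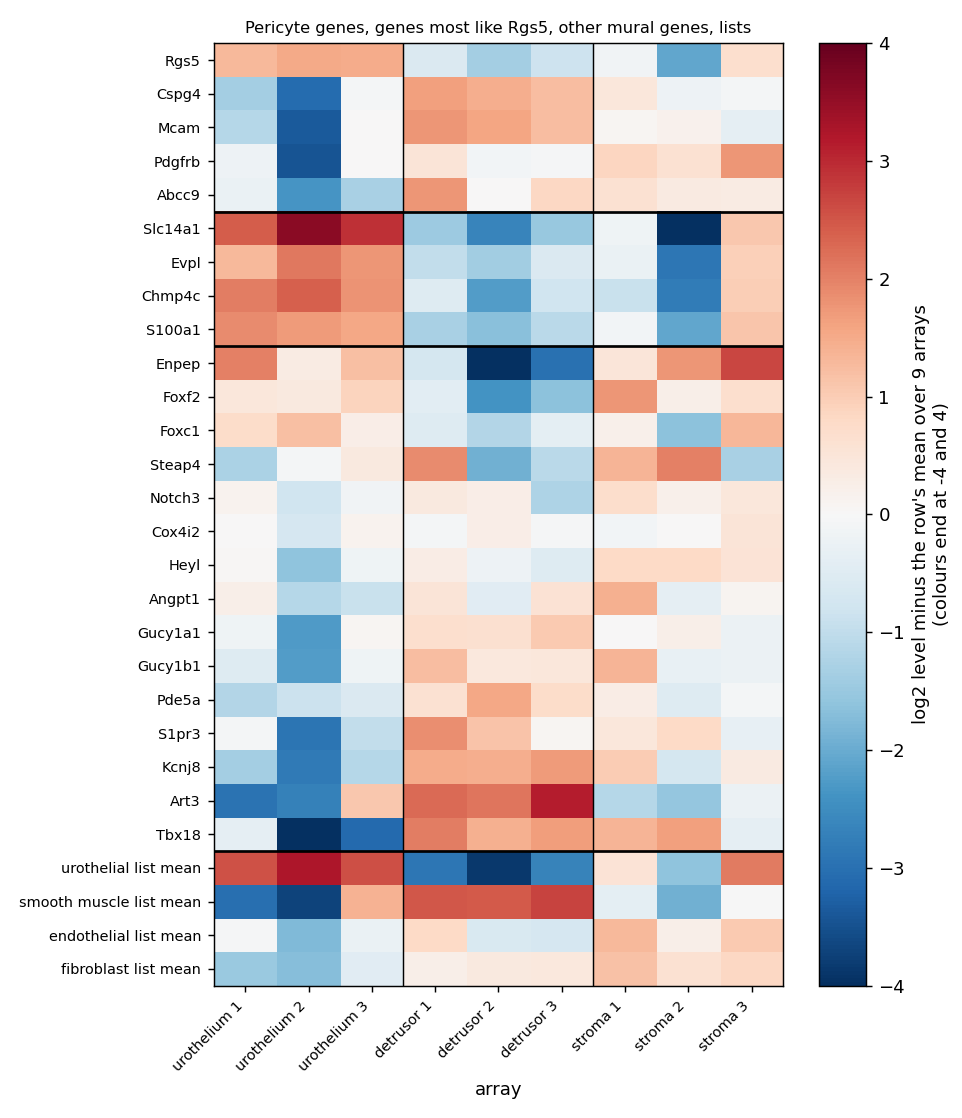
Log2 level minus the mean of each row over the 9 arrays (columns, colour scale from -4 to 4) for the 5 tested genes, the 4 genes most like Rgs5, 15 other mural cell genes ordered by urothelium minus detrusor, and the mean of 4 marker lists. Rgs5 is above its mean in all 3 urothelium arrays and in stroma 3, like the genes of the block under it, whereas Cspg4, Mcam, Pdgfrb and Abcc9 are lowest in urothelium 2.

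Other genes of pericytes and mural cells were taken from a list of 19, of which 18 had a probe set and 15 passed the filter; Higd1b, Ndufa4l2 and Vtn did not. Between urothelium and detrusor 2 of the 15 rose and 5 fell, against 8.37% and 8.05% of all genes. The list's median difference was -0.81, beside -0.01 for all genes. Kcnj8, the pore subunit that pairs with Abcc9, fell by 3.33 (SE 0.53, 10.1-fold, limma adjusted p = 0.00252). Its log2 levels were 9.71, 8.22 and 9.93 in urothelium, against 12.54, 12.53 and 12.78 in detrusor and 12.09, 10.35 and 11.44 in stroma. Pde5a, which breaks down cyclic GMP, fell by 1.84 (SE 0.32, adjusted p = 0.00354), and Tbx18, a T-box factor of mural cell precursors, fell by 4.29 (SE 0.85, adjusted p = 0.00690). Art3, of the ADP-ribosyltransferase family, fell by 4.04 (SE 0.89, adjusted p = 0.0110). Another Art3 probe set, which did not pass the filter, had 0.36 ± 0.75 there and -0.03 ± 0.75 between detrusor and stroma. S1pr3, a sphingosine phosphate receptor gene picked after its values were seen, fell by 2.38 (SE 0.67, adjusted p = 0.0351), although another of its probe sets had 0.48. S1pr3 was called in 13 of 20 alternatives and lost its call without urothelium 2 (-1.58), urothelium 3, detrusor 1 or detrusor 2 (adjusted p from 0.0551 to 0.128), while without urothelium 1 it had -3.00. Art3 lost this call without detrusor 3 (adjusted p = 0.0539) and had -3.32 without urothelium 1 and -5.34 without urothelium 3. Tbx18 had -5.39 without urothelium 1 and -3.45 without urothelium 2.

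The 2 that rose with Rgs5, also picked after their values were seen, were Enpep and Foxf2. Enpep encodes an aminopeptidase that trims angiotensin, and Foxf2 a forkhead factor of mural cells. Enpep had log2 levels of 14.79, 13.08 and 13.96 in urothelium, against 12.06, 8.03 and 9.77 in detrusor and 13.25, 14.52 and 15.44 in stroma, and was 3.99 ± 0.89 higher in urothelium than in detrusor (15.9-fold, adjusted p = 0.0117). Its urothelium minus stroma difference was -0.46 ± 0.89 (adjusted p = 0.828), and between detrusor and stroma it fell by 4.45 (SE 0.89, adjusted p = 0.0199). Foxf2 was 2.07 ± 0.56 higher in urothelium than in detrusor (adjusted p = 0.0289) and fell by 2.38 in detrusor against stroma (SE 0.56, adjusted p = 0.0344). Another Foxf2 probe set, which did not pass the filter, went the other way in both contrasts, with -0.84 ± 0.48 and 0.48 ± 0.48. Foxf2 lost its call between urothelium and detrusor without any one of the urothelium arrays or without detrusor 2 or 3 (adjusted p from 0.0662 to 0.0993). Its call in detrusor against stroma was lost without urothelium 1, detrusor 2, detrusor 3, stroma 1 or stroma 3 (adjusted p from 0.0542 to 0.130), and it was called in 13 and 9 of 20 alternatives. Enpep was 5.05 higher in urothelium than in detrusor without detrusor 1 and 3.03 higher without detrusor 2, and in detrusor against stroma it had -5.51 without detrusor 1 and -3.49 without detrusor 2. Without detrusor 2 or 3, or without stroma 3, Enpep lost its detrusor and stroma call too (adjusted p of 0.0658, 0.0885 and 0.0603). Art3 completed the 3 calls of that comparison, 1 higher and 2 lower, at 3.49 ± 0.89 higher in detrusor (adjusted p = 0.0454), called in 9 of 20 alternatives and lost without any one of the detrusor or stroma arrays (adjusted p from 0.0684 to 0.174). Of all genes, 3.12% were called higher and 2.72% lower there. Between urothelium and stroma 0 of the 15 genes were called, where 0.23% of all genes were.

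The family of Rgs5, the small regulators of G protein signalling, was represented by 4 of 8 listed relatives after the filter. Rgs2, which dampens vasoconstrictor signals, was opposite to Rgs5: its log2 levels were 11.27, 9.93 and 13.69 in urothelium, against 15.61, 16.60 and 15.95 in detrusor and 10.50, 14.18 and 12.94 in stroma. It fell by 4.42 between urothelium and detrusor (SE 0.98, 21.5-fold, adjusted p = 0.0111), with -3.57 without urothelium 2 and -5.45 without urothelium 3. Rgs16 fell by 2.03 (SE 0.61, adjusted p = 0.0449), called in 6 of 19 alternatives and lost without any one of the urothelium or detrusor arrays (adjusted p from 0.0538 to 0.154). Other Rgs16 probe sets, which did not pass the filter, had -1.43 ± 0.39 and 0.05 ± 0.54 in that contrast. Rgs4, the next coding gene beside Rgs5 on chromosome 1, had -1.67 ± 0.66 (adjusted p = 0.116), and Rgs3 had 0.37 ± 0.33 (adjusted p = 0.510). Of the 4, 2 fell and 0 rose, against 8.05% and 8.37% of all genes.

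Abcc9 and Kcnj8 are neighbours on chromosome 6 and encode the subunits of 1 channel. Both had their lowest array in urothelium 2, the array with the lowest median intensity, and their highest mean in detrusor. The alternative pore gene Kcnj11 had -0.37 ± 0.47 between urothelium and detrusor (adjusted p = 0.668), and Abcc8 did not pass the filter. The platelet-derived growth factor genes Pdgfa, Pdgfb, Pdgfc and Pdgfd and the sister receptor gene Pdgfra gave 1 call of 5 in that contrast, where 16.4% of all genes were called. They gave 0 of 5 between urothelium and stroma (0.23% of all genes) and 0 of 5 between detrusor and stroma (5.84%). Pdgfd, a ligand of the receptor that Pdgfrb encodes, fell by 2.90 between urothelium and detrusor (SE 0.83, limma adjusted p = 0.0361). Its log2 levels were 10.14, 6.88 and 10.81 in urothelium, against 11.67, 12.29 and 12.56 in detrusor and 10.16, 10.81 and 11.22 in stroma. Another Pdgfd probe set that passed the filter had -1.59 ± 0.64 in that contrast, and a further probe set that did not pass had -0.01 ± 0.50. Pdgfd was called in 15 of 20 alternatives: without detrusor 1, 2 or 3 its adjusted p was 0.0649, 0.0993 and 0.126, and its difference was -1.70 without urothelium 2 and -3.66 without urothelium 3. Pdgfb, the endothelial ligand, had -0.24 ± 0.54 there and -1.41 ± 0.54 between urothelium and stroma (adjusted p = 0.187). Pdgfra, the fibroblast receptor, had -1.36 ± 0.37 between urothelium and stroma (adjusted p = 0.0909), and Pdgfa and Pdgfc did not pass in any contrast.

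Lists of the other cells these layers can hold were set beside the pericyte genes. Of all genes, 8.37% were called higher and 8.05% lower in urothelium than in detrusor, 3.12% higher and 2.72% lower in detrusor than in stroma, and 0.23% either way between urothelium and stroma, so a count of 0 there is near the share of all genes. Of 12 urothelial genes, 12 rose between urothelium and detrusor, Epcam by 7.80 ± 0.71 and Cdh1 by 7.07 ± 0.81, adhesion genes of epithelia, and Krt7 by 6.88 ± 0.89 (list median 6.33). Of 10 smooth muscle genes 8 fell, of which Smtn fell by 4.19 and Des, the desmin gene, fell by 5.04 (list median -4.33). Without urothelium 3 these were -5.06 for Smtn and -6.58 for Des, and without urothelium 1 Des had -3.96. Without detrusor 1 the Epcam value was 8.49 and without detrusor 2 it was 7.04. The size differed by probe set: another that passed the filter had 1.45 ± 0.47 for Epcam and -1.62 ± 0.57 for Des. Of 12 endothelial genes 0 were called in any of the 3 contrasts, with medians of -0.51 for urothelium minus detrusor, -1.62 for urothelium minus stroma and -1.11 for detrusor minus stroma. Cdh5, the endothelial cadherin gene, had 10.97, 9.61 and 11.04 in urothelium, against 12.30, 11.35 and 10.75 in detrusor and 12.87, 11.93 and 12.37 in stroma. Of 9 fibroblast genes 4 fell between urothelium and detrusor, among them Dcn, which fell by 2.41 (-1.36 on another probe set). Between detrusor and stroma 2 smooth muscle genes rose and 5 urothelial genes fell, and between urothelium and stroma 2 fibroblast genes fell and 0 urothelial and 0 smooth muscle genes were called. For 10 macrophage and 3 glial genes, 0 were called in each contrast, with summed levels of 5703 to 8022 for macrophage genes in urothelium, 6889 to 15623 in detrusor and 10360 to 72465 in stroma. For glial genes these sums were 520.6 to 691.2 in urothelium, 756.0 to 1493 in detrusor and 795.6 to 1694 in stroma. The part of any of these cells in the levels of the 6 genes was not tested.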

How the data were processed

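RNA from laser-captured bladder layers was amplified in 2 rounds, labelled with biotin and hybridised to Affymetrix arrays, 1 per unpooled sample, per the labels' protocols. The authors made the deposited intensity values, on a linear scale, with GCOS, per the submitters' processing notes; the algorithm is not stated there. The 2% trimmed mean lay between 1499.8 and 1500.01 on every array, so that scaling was kept. Array medians ranged from 133.3 (urothelium 2) to 388.5 (stroma 3) intensity units. The number of arrays limits precision (median SE of a difference 0.45 log2 units).

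Of 45101 probe sets, 34945 had 1 gene symbol, 932 several, 9160 none, and 64 were controls. For 34741 the gene identifier matched RefSeq annotation (GRCm38.p6), from which neighbours were read. Values were taken as log2(intensity + 39.31), the 20th percentile. A probe set was kept where its intensity reached the median of the array on 3 or more of 9 arrays, and each gene took its brightest such probe set by mean, leaving 13064 genes. Groups followed the tissue source in the labels. limma 3.58.1 in R 4.3.3 (eBayes with trend) was fitted over all 9 arrays with layer as the term, or layer and day, with Benjamini-Hochberg adjustment over all genes; the fit was tested on simulated data. The 6 genes and the other lists were chosen with earlier results of these data known. Genes named were the members, all of the channel, growth factor and Rgs lists, up to 4 genes with the smallest adjusted p per other list, the 4 most and 2 least like Rgs5, and the 4 most like the other members; exceptions are marked.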

Additional observations from a re-analysis of the deposited data

How the results depend on the processing

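Each value was recomputed with 2 other scalings, 2 other pseudocounts (8.13 and 232.9), no filter or a filter on 6 arrays, every probe set fitted, no variance trend, array weights, day as a covariate, each array left out and stroma 3 and urothelium 3 left out together. Under median centring the all-gene median shifted by 0.41 for detrusor minus stroma, 0.42 for urothelium minus stroma and 0.01 for urothelium minus detrusor. The number of the 6 genes called between urothelium and stroma became 1, Rgs5, with median centring (2.35, adjusted p = 0.0462) and without stroma 3 and urothelium 3 together; with single arrays left out it was 0 to 1 there and 0 to 1 (Mcam, without urothelium 2) between detrusor and stroma. In every setting 1 gene, Rgs5, was higher in urothelium than in detrusor. Rgs5 turned sign between detrusor and stroma without stroma 3 (0.17, also with urothelium 3 left out; -1.20 to 0.17 with single arrays left out). For day 2 minus day 1, sign changes were seen for Rgs5 without stroma 1 (0.01) and without stroma 2 (0.23), and without urothelium 2 for Cspg4 (-0.46), Mcam (-0.30) and Abcc9 (-0.15). With single arrays left out these day values ranged from -0.52 to 0.23 for Rgs5, -0.46 to 1.03 for Cspg4, -0.30 to 1.31 for Mcam and -0.15 to 0.76 for Abcc9. Of 395 refitted values of single genes, 379 kept their direction and side of the threshold or moved by less than the spread, 5 moved by more, 4 newly passed the threshold, and 7 changed sign. Of 45 values within 1 day or layer, 8 changed sign, all for day within detrusor or stroma. The cause was not tested. Counts over all genes between urothelium and stroma, 30 here, ranged from 0 (without a variance trend) to 528 (without stroma 3), and with median centring were 223, of which 192 were higher. Between detrusor and stroma median centring gave 589 higher and 144 lower genes, against 408 and 355, and the total of 763 fell to 105 without detrusor 3. No paired analysis was possible because the labels give the layers no shared replicate numbers. Low signals such as Anpep cannot be told from background.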
